A study of Homo sapiens with 2 samples.

Results

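Neuronal-type genes are genes whose products are best known from neurons and neuroendocrine cells, and some of them are expressed in HEK293T, an established human embryonic kidney line. The set listed here holds 8 symbols (NEFL, NEFM, INA, BEX1, BEX2, SCG3, ENO2 and UCHL1). Rows were found by Ensembl gene ID, with the version removed, through a table that pairs IDs with symbols. By that rule 7 of the 8 matched a row, out of 57820 gene IDs in all, and NEFL did not, so it is not analysed here. The table's IDs carry later version numbers than those of the files, so NEFL may stand in the files under an older ID that the table does not pair with it. The 7 matched genes all had a mean of at least 5 CPM (counts scaled to library size), against 10104 genes of the whole table. INA and SCG3 reached it only through the library of cells given SRα siRNA, described below. The genes were selected on their read counts in these libraries, with their ratios between the libraries known, so what follows describes them and tests nothing.

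Messenger RNA was sequenced in 1 library of HEK293T cells given control siRNA (the control library) and 1 library of HEK293T cells given SRα siRNA (the SRα library). SRα, encoded by SRPRA, is part of the receptor that binds the signal recognition particle and hands ribosomes that make secreted and membrane proteins to the endoplasmic reticulum. The question is which messages stand at another level once SRα is depleted. There were no replicates, so no difference has a replicate check, and each interval below is a 95% interval for counting error only. The control library held 2445200 reads in genes and the SRα library 3896721. SRPRA, the check of the label, stood at 205 CPM (507 reads) in the control library and at 117 CPM (449 reads) in the SRα library, a log2 ratio of -0.81 (-0.998 to -0.63).

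Neurofilaments are the intermediate filaments of axons, built from light, medium and heavy chains together with alpha-internexin, the product of INA. BEX proteins are small, largely disordered adaptor proteins encoded side by side on the X chromosome. SCG3 encodes secretogranin III, a granin that enters the secretory pathway by a signal peptide and helps sort cargo into dense-core granules. ENO2 encodes the gamma enolase of neurons and UCHL1 a deubiquitinating enzyme that is very abundant in brain. Many genes of this kind are held down outside neurons by REST, a zinc finger repressor that binds a DNA element made of a left and a right part.

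Sequences of BEX1 and BEX2 are shown so that a reader can see how alike their messages are. Alignments that were not unique were tallied apart from the gene counts. The letters of that element found beside the start of SCG3, the gene with the highest ratio, are shown as well. The stretches below are the opening of the BEX1 coding sequence and the aligned part of BEX2, from GENCODE 29 transcripts (GRCh38), 5′ to 3′, with capitals where they differ.
BEX1: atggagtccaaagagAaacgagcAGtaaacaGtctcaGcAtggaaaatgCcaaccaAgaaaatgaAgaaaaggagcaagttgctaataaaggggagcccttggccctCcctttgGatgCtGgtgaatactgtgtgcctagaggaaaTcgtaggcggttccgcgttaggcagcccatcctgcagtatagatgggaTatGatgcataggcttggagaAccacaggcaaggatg
BEX2: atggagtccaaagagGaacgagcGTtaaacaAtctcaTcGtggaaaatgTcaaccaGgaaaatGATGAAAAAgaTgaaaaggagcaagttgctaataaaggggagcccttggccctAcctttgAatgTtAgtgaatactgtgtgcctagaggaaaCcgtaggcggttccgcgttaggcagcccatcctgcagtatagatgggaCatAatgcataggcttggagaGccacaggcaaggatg

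These stretches cover 240 aligned columns, with 17 substitutions and 9 columns present only in BEX2. Over the whole BEX1 coding sequence of 375 bases, 354 of 384 aligned columns (92.2%) were identical, and the longest identical run was 75 bases. The first 96 bases of the longest BEX2 coding sequence, which BEX1 lacks, were left out. In transcripts, 3.19% of the 50-base words of BEX1 also occurred in BEX2, and 2.92% of those of BEX2 occurred in BEX1 or BEX4. None of the 100-base words of either message occurred in the transcripts of another gene. The read length is not given in the sources used here, so the share of reads lost to shared sequence was not determined.

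In SCG3, the core letters of both parts of the REST element stood together just after the annotated start, shown in capitals in the next line (RefSeq, GRCh38.p14, chr15:51681511-51681537, plus strand, 5′ to 3′).
SCG3: ttCAGCACCcacagggcGGACAGCgct

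The letters CAGCACC and GGACAGC were searched on both strands in windows from 250 bases before to 50 bases after the annotated start. The table held such windows for 6 of the set (BEX1, BEX2, ENO2, INA, SCG3 and UCHL1). CAGCACC lay in 7.75% of all 35116 windows and GGACAGC in 6.03%, and SCG3 was the one gene of the 6 with either. In SCG3 they were separated by 8 bases, between bases 11 and 32 after the start. CAGCACC followed by GGACAGC with 8 bases of any kind in between occurred in 5 windows (0.0142%), and with 2 bases in between, the usual spacing, in 15 (0.0427%). Spacings from 0 to 12 bases were searched and the one of 8 was read from SCG3 itself, so each share is for a single spacing. A match of letters is a description, not a binding site. TATAAA, the TATA box letters, lay in UCHL1 alone of the 6 and in 11.5% of all windows. GGGCGG, the GC box letters, lay in BEX2, ENO2, INA, SCG3 and UCHL1 and in 45.0% of all windows. The 6 windows had 61.3% to 75.0% G and C, above the median of 58.7% over all windows.

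Each of the 7 messages stood at a higher CPM in the SRα library, with log2 ratios from 0.14 to 1.51 and a median of 0.34. A gene was called measured when its mean reached 1 CPM, and of 12747 such genes 51.4% were higher, with a median ratio of 0.01. By level, 46.6% of genes with a mean of 4 to 10 CPM were higher (the class of INA and SCG3), 47.7% of those from 10 to 50 CPM (BEX2 and ENO2) and 59.9% of those from 50 CPM up (NEFM, BEX1 and UCHL1). Of the 7, INA and SCG3 were at least 1.5-fold higher, a size reached by 6.55% of measured genes, and none was at least 1.5-fold lower, against 6.97%. SCG3 alone was at least 2-fold higher (background 2.15%), and none was at least 2-fold lower (2.57%). Since these ratios were in view when the set was put together, nothing is read from these counts.

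**Figure D1:**
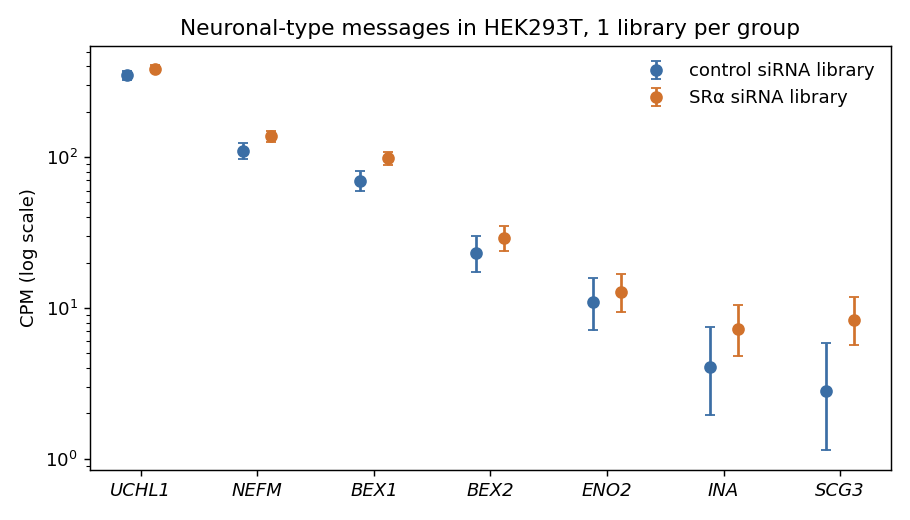
CPM of each of the 7 genes (log scale) in the control library (blue) and the SRα library (orange), with 95% Poisson intervals of the read count. Each orange point lies above its blue point, and levels run from 2.83 CPM for SCG3 to 386 CPM for UCHL1.

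Base composition moved with the ratios of genes in general. In the tenth of measured genes lowest in G and C (26.5% to 38.3%) 61.9% were higher in the SRα library, and in the tenth highest (61.1% to 83.9%) 39.7% were. The 7 messages had 41.9% (SCG3) to 58.9% (UCHL1), with a median of 54.0% against 47.6% for measured genes. Genes in the tenth from 53.9% to 57.5%, which holds NEFM, BEX2 and ENO2, had a median ratio of -0.05, below those of these 3 genes.

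**Figure D2:**
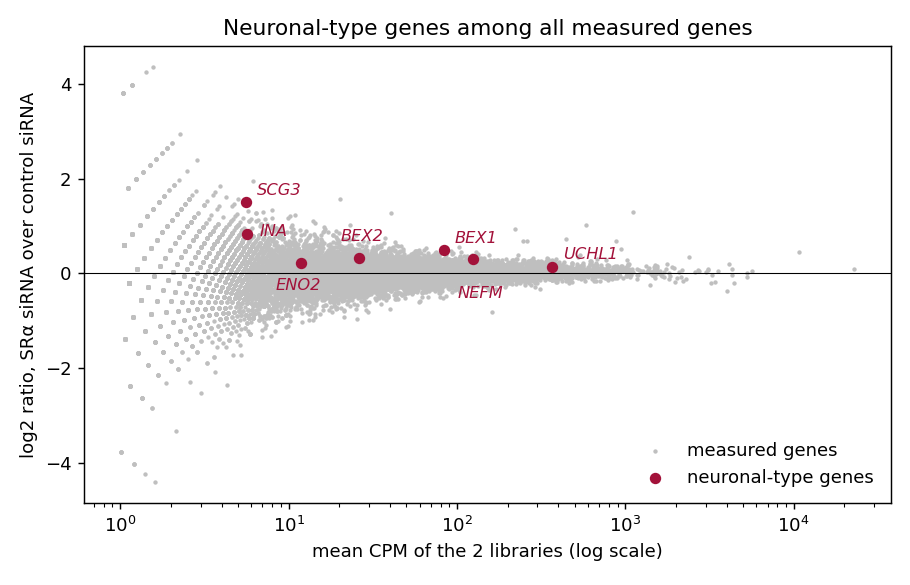
Log2 ratio of the SRα library over the control library against mean CPM (log scale) for all measured genes (grey) and the 7 neuronal-type genes (red). The grey cloud narrows with level, and SCG3 at 1.51 and BEX1 at 0.49 lie near its upper edge at their levels.

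The filament genes were NEFM and INA. NEFM (ENSG00000104722.9), the medium neurofilament chain, had 273 reads or 110 CPM in the control library and 528 reads or 137 CPM in the SRα library. Its log2 ratio was 0.32 (0.10 to 0.53), a 1.24-fold higher level (1.07 to 1.45). The counting interval thus lay above equal levels. INA (ENSG00000148798.5) had 10 reads or 4.04 CPM and 28 reads or 7.28 CPM, with a log2 ratio of 0.83 (-0.24 to 2.06). A difference in INA was therefore not detectable at this depth, although its ratio was larger than that of NEFM. The mean of INA reached 5 CPM only through its level in the SRα library. In its class of 4 to 10 CPM, a range set after the values were seen, 10.8% of genes stood 1.5-fold or more higher and 12.3% stood 1.5-fold or more lower. INA made up 3.53% (1.71% to 6.40%) of the summed NEFM and INA reads in the control library and 5.04% (3.37% to 7.20%) in the SRα library, and these exact binomial intervals overlap.

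NEFM shared 41.9% of its 50-base words with AF106564.1 or the pseudogene NEFMP1. AF106564.1 is an antisense entry that overlaps NEFM and had 0 reads in both libraries. Whether reads were counted by strand is not given, so the share of NEFM reads lost to this overlap was not determined. Of the 100-base words of NEFM 41.0% were shared, all with AF106564.1 and none with NEFMP1. INA shared 0 words of either length. Of 14 other intermediate filament genes on a list, 9 were measured, 5 higher and 4 lower in the SRα library (median 0.04), and none reached 1.5-fold. The heavy neurofilament chain NEFH had 0 reads in both libraries, which allows up to 1.21 CPM and 0.780 CPM if a count of 0 is taken to allow 3 reads, and PRPH, encoding peripherin of peripheral neurons, had 2 and 2. VIM, the vimentin of mesenchymal and many cultured cells, had 771 and 1485 reads, with a log2 ratio of 0.31 (0.18 to 0.44), close in size to that of NEFM. NES, the nestin of neural progenitors, had 15 and 24 reads and 0.04 (-0.95 to 1.08). NEFM held 25.5% of the reads of these neuronal, vimentin and nestin entries (NEFM, NEFH, INA, PRPH, VIM and NES) in each library. The extremes of the filament list were SYNM at 0.33 (-1.86 to 2.99), KRT10 at 0.32 (-0.04 to 0.70), KRT8 at -0.30 (-1.14 to 0.55) and LMNA at -0.12 (-0.39 to 0.15), all with intervals that include equal levels. LMNB1, a lamin of the nuclear envelope and the most-read entry of the list per length, had 0.12 (0.03 to 0.21).

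BEX1 (ENSG00000133169.5) had 173 reads or 69.9 CPM in the control library and 377 reads or 98.0 CPM in the SRα library. The log2 ratio was 0.49 (0.22 to 0.76), a 1.40-fold higher level (1.17 to 1.69). Its relative BEX2 (ENSG00000133134.7) had 57 reads or 23.0 CPM and 112 reads or 29.1 CPM, with a log2 ratio of 0.34 (-0.13 to 0.82). BEX1 thus lay above equal levels by more than counting error, and for BEX2 the difference was not detectable at this depth. BEX1 gave 75.2% (69.1% to 80.7%) of the summed BEX1 and BEX2 reads in the control library and 77.1% (73.1% to 80.7%) in the SRα library, so the proportion between these near relatives did not differ beyond counting error. Among genes of at least 50 CPM, the class of BEX1, NEFM and UCHL1, the central 95% of ratios ran from -0.280 to 0.318. BEX1 lay above that range without reaching 1.5-fold, and NEFM at 0.315 and UCHL1 at 0.144 lay inside it.

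The wider BEX and TCEAL family shares its place on the X chromosome with these genes, and its TCEAL members resemble a transcription elongation factor. Of 12 relatives on the list, 8 were measured, and 7 of these were higher in the SRα library and 1 lower. Their median was 0.32, against 0.01 over all measured genes, of which 51.4% were higher. BEX5 was at least 1.5-fold higher, with 7 and 20 reads, with a ratio of 0.84 (-0.42 to 2.36), and TCEAL2 at least 1.5-fold lower, with 6 and 5 reads and -0.82 (-2.95 to 1.08). Both intervals include equal levels. TCEAL8 had 171 and 340 reads and 0.35 (0.09 to 0.63), the one relative whose interval lay above 0. BEX4 had 0.41 (-0.01 to 0.86), TCEAL1 0.47 (-0.17 to 1.15), TCEAL4 0.28 (-0.01 to 0.58), BEX3 0.13 (-0.08 to 0.34) and TCEAL9 0.05 (-0.26 to 0.36). TCEAL5, TCEAL6 and TCEAL7 had 0 reads in both libraries.

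SCG3 (ENSG00000104112.4) is the member of the set whose protein is made at the endoplasmic reticulum and packed into granules. It had 7 reads or 2.83 CPM in the control library and 32 reads or 8.32 CPM in the SRα library. The log2 ratio was 1.51 (0.35 to 2.98), a 2.84-fold higher level with an interval of 1.28 to 7.90. It was the third highest of the 10104 genes of at least 5 CPM, a mean it reached only through its level in the SRα library. Of all measured genes, 99.1% had a lower ratio. It stands here as an extreme, and its interval takes no account of that choice. In the same class of 4 to 10 CPM, 1.89% of genes stood 2-fold or more higher and 2.56% stood 2-fold or more lower. SCG3 shared no 50-base word with another gene, and the AC020892.1 and AC020892.2 entries that overlap it on the other strand had 0 reads in both libraries.

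Of 16 other granins and granule proteins on a list, 6 were measured, and all 6 were lower in the SRα library (median -0.16). Among all measured genes 51.4% were higher. CHGA, encoding the granin chromogranin A, had 5 and 7 reads, with a ratio of -0.14 (-2.02 to 1.85). CPE, the carboxypeptidase that trims hormone precursors, had 307 and 418 reads and -0.19 (-0.41 to 0.03). PAM, which amidates peptides, had -0.28 (-0.61 to 0.05), PCSK1N, which encodes an inhibitor of a prohormone convertase, -0.14 (-0.53 to 0.26), CADPS2, a factor of granule release, -0.11 (-0.50 to 0.28), and VGF, another granin, -0.92 (-3.82 to 1.51) from 4 and 3 reads. Each of these 6 intervals includes equal levels. VGF was the one of the 6 at least 1.5-fold lower, a size reached by 6.97% of measured genes. Below the level for measured genes, CHGB had 0 and 3 reads, SCG5 1 and 4 and PCSK2 1 and 3, each a higher CPM in the SRα library. PCSK1 had 1 and 0 and SYT11 2 and 0, each a lower CPM. SCG2, CADPS, PTPRN, PTPRN2 and SYT4 had 0 in both libraries. The list thus held both well-read genes, CPE and PAM among them, and genes with few or no reads.

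ENO2 (ENSG00000111674.4) had 27 reads or 10.9 CPM in the control library and 49 reads or 12.7 CPM in the SRα library. The log2 ratio was 0.22 (-0.48 to 0.96), so no difference was detectable at this depth. ENO1, the alpha enolase of most tissues, had 8154 and 12370 reads, with a ratio of -0.03 (-0.08 to 0.01), and ENO3, the muscle form, had 3 and 4. ENO2 gave 0.330% (0.218% to 0.480%) of the reads of these 3 enolases in the control library and 0.394% (0.292% to 0.521%) in the SRα library. The neuronal enolase was thus a small fraction of enolase reads in both, and the intervals overlap. ENO2 shared 0.036% of its 50-base words with ENO1. LRRC23, which overlaps ENO2 on the same strand, had 4 and 6 reads. Of 17 other genes of glycolysis on the list, ENO1 and ENO3 included, 5 were higher and 12 lower (median -0.05), and none reached 1.5-fold. Their extremes were PGAM1 at 0.13 (-0.58 to 0.88), PKM at 0.12 (0.06 to 0.18), ALDOC, the aldolase of brain, at -0.29 (-0.82 to 0.25), and ENO3 at -0.19 (-2.78 to 2.55).

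UCHL1 (ENSG00000154277.8) was the most-read gene of the set, with 866 reads or 350 CPM in the control library and 1487 reads or 386 CPM in the SRα library. The log2 ratio of 0.14 (0.02 to 0.27) was the smallest of the 7, a 1.10-fold higher level (1.02 to 1.20). Its interval lay just above equal levels, and 70.7% of measured genes had a lower ratio. Its relative UCHL5, which works at the proteasome, had 495 and 871 reads and 0.18 (0.02 to 0.34), UCHL3 had 93 and 147 reads and 0.02 (-0.36 to 0.42), and BAP1, a nuclear deubiquitinase, had -0.11 (-0.47 to 0.24). UCHL1 gave 59.6% (57.0% to 62.1%) of the reads of UCHL1, UCHL3 and UCHL5 in the control library and 59.4% (57.4% to 61.3%) in the SRα library. Within that group its share did not differ beyond counting error. UCHL1-AS1, the antisense entry at the locus, had 0 reads in both libraries.

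**Figure D3:**
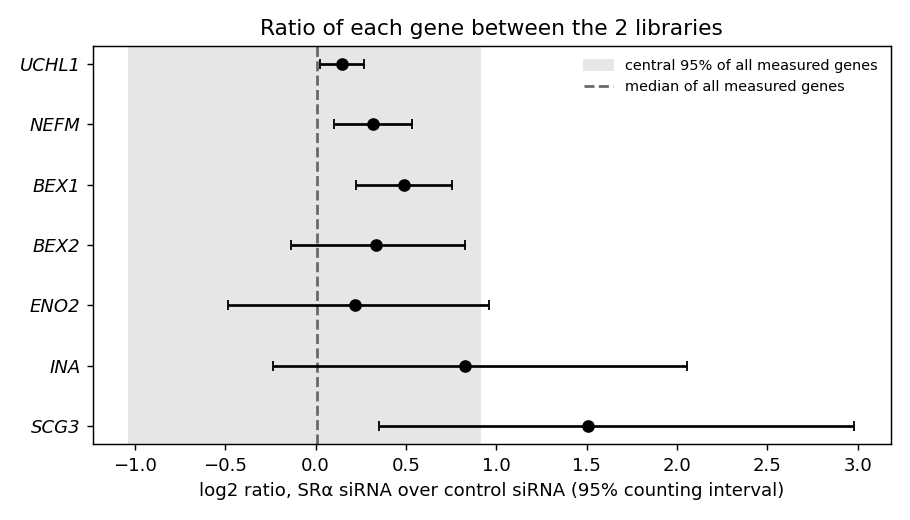
Log2 ratio of the SRα library over the control library for each of the 7 genes, with 95% counting intervals. The grey band is the central 95% of measured genes (-1.03 to 0.91) and the dashed line their median of 0.01; the intervals of UCHL1, NEFM, BEX1 and SCG3 lie above 0.

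Levels of different genes were compared as CPM per kilobase of exon. UCHL1 stood first in both libraries, at 153 in the control library and 169 in the SRα library, followed by BEX1 at 80.9 and 113. NEFM came next at 25.2 and 31.3, then BEX2 at 19.6 and 24.8. In the control library NEFM and BEX2 did not differ beyond counting error (1.29-fold, 0.963 to 1.74), and with SRα siRNA NEFM was 1.27-fold above BEX2 (1.03 to 1.57). ENO2 stood at 2.55 and 2.97, INA at 1.25 and 2.25, and SCG3 at 0.853 and 2.51. Neighbours among these last 3 did not differ beyond counting error in either library, and INA and SCG3 changed places between them. The set thus splits into 4 well-read messages and 3 sparse ones. With the longest coding sequence as the length, BEX2 stood above NEFM, at 48.0 and 60.6 against 40.1 and 49.9, and the other places were as before. ENO2 then stood above INA in the control library by 3.10-fold (1.46 to 7.19), and above SCG3 in the SRα library by 1.65-fold (1.04 to 2.66), beyond counting error.

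**Figure D4:**
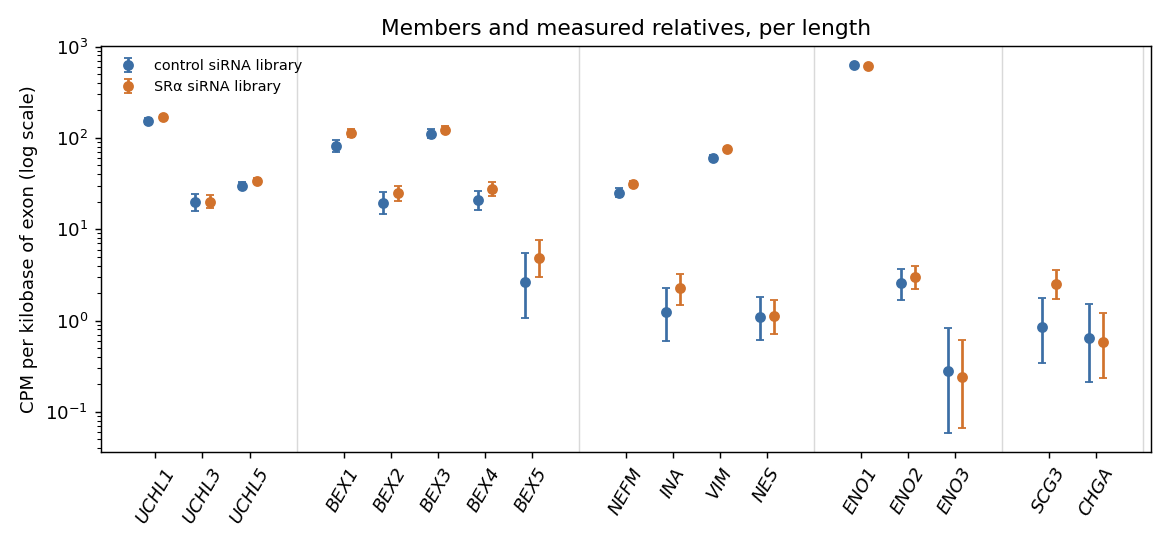
CPM per kilobase of exon (log scale) of the 7 genes and some measured relatives in the control library (blue) and the SRα library (orange), with 95% Poisson intervals. The relatives drawn are UCHL3, UCHL5, BEX3, BEX4, BEX5, VIM, NES, ENO1, ENO3 and CHGA, and other measured relatives are not drawn. UCHL1 lies above UCHL3 and UCHL5, while ENO2 lies far below ENO1, at 2.55 and 2.97.

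Other neuronal genes were read for context, from lists chosen with the set. Of 18 genes of the neuronal cytoskeleton and growth cone, 14 were measured, 9 higher and 5 lower (median 0.11). Over all measured genes 51.4% were higher. STMN1, a microtubule-destabilising protein of dividing cells and neurons, had 1886 and 2956 reads and 0.01 (-0.07 to 0.10), and TUBB2A had -0.07 (-0.32 to 0.18). STMN3 had 38 and 83 reads and 0.49 (-0.08 to 1.09). DPYSL5, of the family that guides growth cones and named after its values were seen, had 116 and 240 reads and 0.41 (0.09 to 0.75), the one interval of the 14 that lay above 0. CRMP1 at 1.51 (-0.54 to 4.92) and MAP2 at -1.68 (-5.35 to 0.65), the 2 past a 2-fold size, had 2 and 10 reads and 5 and 2 reads. DCX, STMN2 and STMN4 had 0 reads in both libraries.

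Of 20 markers of synapses and neuronal identity, 8 were measured, 6 higher and 2 lower (median 0.13). Over all measured genes 51.4% were higher and 6.55% at least 1.5-fold higher. SYP, encoding the synaptic vesicle protein synaptophysin, had 51 and 123 reads and 0.63 (0.15 to 1.13), the one of the 8 at least 1.5-fold higher. STX1A had 0.47 (-1.14 to 2.38), GPM6A 0.15 (-0.28 to 0.59), NCAM1 -0.31 (-0.91 to 0.29) and NLGN1 -0.41 (-1.24 to 0.41). ELAVL3, ELAVL4, DLG4 and SLC17A6 had 0 reads in both libraries, and RBFOX3, which encodes the NeuN antigen of mature neurons, had 1 and 4. ELAVL2 had 34 and 54 reads, with 0.03 (-0.61 to 0.70), GAD1 26 and 44, with 0.12 (-0.61 to 0.88), and SYT1 16 and 28, with 0.17 (-0.76 to 1.16), none of them different beyond counting error. These 3 were named after their values were seen. Markers of neurons were thus read in part: 8 of 20 were measured, and 5 had no read. Per kilobase of exon, SYP stood at 3.95 CPM in the control library and 6.13 in the SRα library. GPM6A stood at 4.13 and 4.58, both genes below BEX2 at 19.6 and 24.8.

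**Figure D5:**
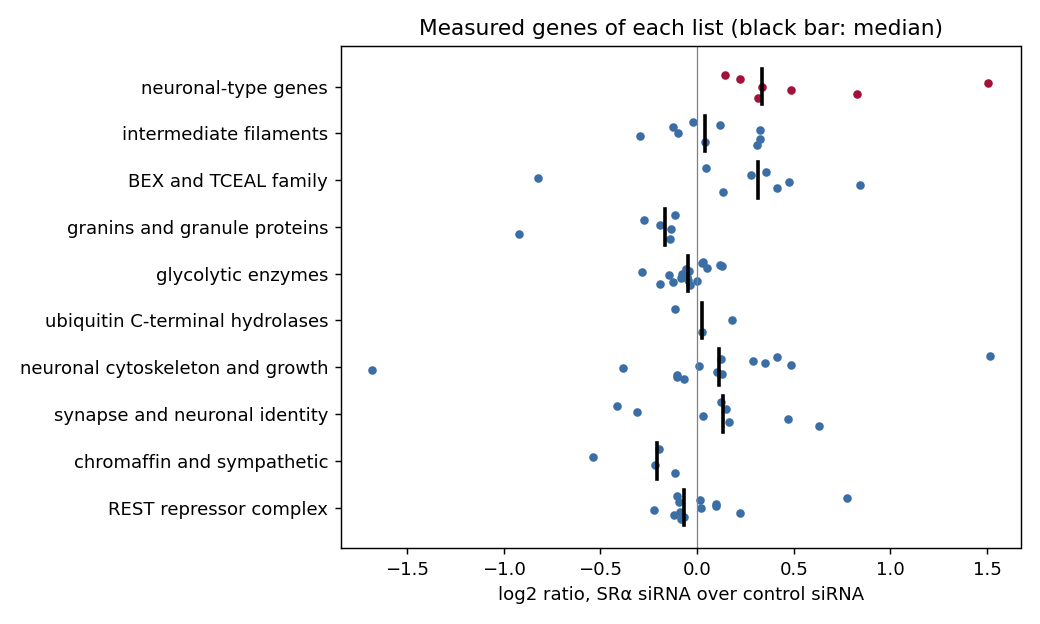
Log2 ratios of the measured genes of the set (red) and of the other lists (blue), with each list's median as a black bar. The set (median 0.34) and the BEX and TCEAL family (0.32) lie mostly above 0, and the granins and granule proteins (-0.16) below it.

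The repressor REST, named after its values were seen, had 105 and 154 reads, with a log2 ratio of -0.08 (-0.45 to 0.29). Of 14 genes of REST and its partners, 13 were measured, 6 higher and 7 lower (median -0.07). Over all measured genes 51.4% were higher and 6.55% at least 1.5-fold higher. CTDSP1, a phosphatase that acts with REST, was at least 1.5-fold higher at 0.78 (-0.07 to 1.72) from 16 and 43 reads, and RCOR3 had 0.22 (-0.28 to 0.73), RCOR2 -0.12 (-1.18 to 0.98) and SIN3B -0.22 (-0.52 to 0.08). The well-read HDAC1 and KDM1A, both enzymes of repressor complexes, had 0.02 (-0.06 to 0.11) and 0.10 (-0.02 to 0.22). No difference in these genes was detectable at this depth.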

How the data were processed

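Per the labels' protocols, TRIzol RNA went into a TruSeq Stranded mRNA preparation. The deposited values are raw read counts per Ensembl gene ID. The authors used cutadapt, STAR 2.5.2b and hg19, per the submitters' processing notes; how reads were counted, by which annotation and whether by strand, is not given in the sources used here. The 5 summary lines of each file were kept out; alignments that were not unique made up 79.6% (control siRNA) and 76.5% (SRα siRNA) of all entries. Libraries were scaled by TMM (edgeR 4.0.16, R 4.3.3), with a prior count of 0.5 for ratios and a minimum mean of 1 CPM. Ratio intervals and shares are exact (Clopper-Pearson), and level intervals are exact Poisson. Reads have no molecular identifiers and are not independent molecules. The calculation of ratios and intervals was checked on simulated counts. GENCODE 29 gave exon length, coding length, GC content and overlaps by gene ID. Other scalings tried were library totals, upper quartile, size factors of DESeq2 1.42.0 and totals without mitochondrial and the 10 most-read genes, besides prior counts of 2 and 0.125, and other filters. Python 3.11.15 with scipy 1.17.1 and Biopython 1.88 was used. Members and lists were chosen with earlier results of these data known. The text names all members, up to 2 highest, 2 lowest and 2 most-read genes per list, and close relatives; some list genes are not reported here.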

Additional observations from a re-analysis of the deposited data

How the results depend on the processing

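No paired analysis was possible because each group has 1 library. Under 6 other settings of scaling and prior count, SCG3 ranged from 1.37 to 1.54, INA from 0.76 to 0.84, BEX1 from 0.45 to 0.49, BEX2 from 0.30 to 0.34, NEFM from 0.28 to 0.32, ENO2 from 0.19 to 0.23 and UCHL1 from 0.11 to 0.15, all inside the main counting intervals. The counts of the set past 1.5-fold and 2-fold were the same under these settings and with BEX1 and BEX2 summed. Using no filter, or a minimum mean of 5 CPM, could not change them, since all 7 genes had a mean of at least 5 CPM. INA and SCG3 reached that mean only through the SRα library. The count higher was 7 in each setting except the sum of BEX1 and BEX2, which leaves 6 entries, all 6 higher. The median ran from 0.30 to 0.38, the highest with BEX1 and BEX2 summed. With coding length in place of exon length, 2 of the 7 genes (NEFM and BEX2) took another place in the order of levels, 2 in each library. Depth limits INA, SCG3, ENO2 and BEX2 most.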

Other observations

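Markers of the other cell types that HEK293T has been likened to were read as well. Of 14 markers of adrenal chromaffin and sympathetic cells, 4 were measured, and all 4 were lower in the SRα library (median -0.21): ISL1 at -0.20 (-0.69 to 0.30), GATA2 at -0.22 (-0.74 to 0.30), GATA3 at -0.54 (-1.59 to 0.49) and HAND2 at -0.11 (-1.66 to 1.51). Among all measured genes 51.4% were higher. The summed level of the whole list was 58.6 CPM in the control library and 49.4 CPM in the SRα library. The defining enzymes TH, DBH and DDC and the regulator PHOX2A had 0 reads in both libraries, as did DLK1 and SLC18A1.

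Of 14 markers of kidney epithelium and its progenitors, 12 matched a row and 4 were measured, 1 higher and 3 lower (median -0.15). Over all measured genes 51.4% were higher. LRP2, the endocytic receptor megalin, had 219 and 282 reads, with a log2 ratio of -0.27 (-0.53 to -0.01), SIX2 had 58 and 68 reads and -0.40 (-0.93 to 0.12), WT1 had 36 and 55 reads and -0.02 (-0.66 to 0.62), and PAX2 had 1 and 7 reads and 1.82 (-0.79 to 7.67). PAX8, CDH16, UMOD, AQP1, SLC12A1 and SLC22A6, which mark differentiated kidney cells or their lineage, had 0 reads in both libraries. Of 10 glial markers 3 were measured, with SLC1A3 at 0.00 (-0.20 to 0.21), OLIG2 at -0.28 (-0.84 to 0.27) and MBP at -0.19 (-2.78 to 2.55). The part of these cell types' messages in the ratios of the 7 genes was not tested.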
